A study of Mus musculus with 36 samples.

Results

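The 10 genes described here are 9 C-type lectin receptors of myeloid cells (*Clec4a1*, *Clec4a2*, *Clec4a3*, *Clec4d*, *Clec4e*, *Clec4n*, *Clec7a*, *Clec10a* and *Clec12a*) and the signalling adaptor gene *Card9*. They are 10 of the 24781 genes in the deposited count table. They were picked by name, and *Clec7a* was selected on measured values of these same libraries, because it stayed above WT in TAMs of GABA-treated *muMt*-/- mice. Values of the 10 genes in the TAM comparisons against WT are therefore given as a description and support nothing.

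The study asked how GABA, a metabolite that B cells release, acts on immune cells of MC38 colon carcinoma. Tumour macrophages (TAMs, sorted as CD45+CD11b+F4/80high) and tumour CD8+ T cells (sorted as CD45+TCRbeta+CD8+) were collected 7 days after tumour inoculation. Each of the 36 libraries held 100 cells of 1 mouse, with 6 libraries per cell type from WT mice, 6 from *muMt*-/- mice and 6 from *muMt*-/- mice carrying an implanted GABA pellet. The *muMt*-/- mice lack mature B cells from birth, so the comparison with WT is of mice that developed without these cells. The labels give no treatment for the WT group and the *muMt*-/- group without GABA. The study's methods describe placebo pellets, and its figure on TAM transcripts names these 2 groups as placebo-treated. The *muMt*-/- mice without GABA are called *muMt*-/- or untreated below. The *muMt*-/- strain is C57BL/6J and the study used WT mice of C57BL/6J or C57BL/6N, of both sexes and 2 to 5 months old, but strain, sex and age are not given per library. The labels describe the replicates as independent library preparations.

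C-type lectin receptors bind sugars and lipids on microbes and damaged cells. *Clec7a* encodes dectin-1, the β-glucan receptor, which carries its own activating motif in its cytoplasmic tail. *Clec4e* (Mincle), *Clec4d* (MCL) and *Clec4n* (dectin-2) signal through the adaptor FcRγ, encoded by *Fcer1g*. These receptors recruit the kinase SYK, which acts through the complex of CARD9, BCL10 and MALT1 to activate NF-κB and cytokine genes. *Clec4a2* (DCIR1) and *Clec12a* (MICL) carry inhibitory motifs that recruit phosphatases.

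Molecules were counted with molecular barcodes, so that 1 count is 1 captured RNA molecule. TAM libraries held between 206394 and 304100 molecules in WT (median 242756), between 100254 and 253608 in *muMt*-/- (median 149960) and between 151856 and 262606 in GABA-treated *muMt*-/- mice (median 192775). CD8+ libraries held fewer, with medians of 42065.5, 67121.5 and 80283 in the same order and extremes of 22896 and 98015. Against WT, mean depth was lower in TAM libraries and higher in CD8+ libraries of both *muMt*-/- groups, and no comparison passed the threshold. In exact two-sided permutation tests adjusted over 6 comparisons, the smallest adjusted p was 0.0519, for CD8+ libraries of GABA-treated *muMt*-/- mice against WT (ratio of means 1.86).

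The sorted cell types were checked against marker genes. *Csf1r* had a median of 827, 750 and 786 CPM (counts per 1000000 molecules of the library) in WT, *muMt*-/- and GABA-treated *muMt*-/- TAMs, and *Adgre1*, which encodes F4/80, had 290, 245 and 268. *Cd8a* had medians of 745, 613 and 595 CPM in CD8+ libraries and 0 in all 3 TAM groups. Of 12 T cell markers, all were detected in some TAM library, but their summed mean was 16.9 CPM against 4683 in CD8+ libraries. Macrophage marker RNA was present in CD8+ libraries. *Csf1r* reached 488 CPM in a *muMt*-/- CD8+ library, where the lowest *muMt*-/- TAM library had 453, and the 16 macrophage markers of *muMt*-/- replicate 1 stood at 40.5% of the TAM level.

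*Clec7a* levels lay apart in WT and *muMt*-/- TAMs, and GABA-treated TAMs overlapped both. Normalized numbers of molecules, which are counts divided by a size factor per library, were lowest 79.4, median 101 and highest 159 in WT. They were lowest 204, median 243 and highest 459 in *muMt*-/- TAMs, so that all 6 *muMt*-/- libraries lay above all 6 WT libraries. GABA-treated *muMt*-/- libraries had lowest 155, median 169 and highest 393, and 4 of the 6 lay above every WT library. The overlap came from a single high WT library, replicate 5, since the next WT library was at 104. The means were 105 ± 28.8, 276 ± 93.5 and 208 ± 92.7 (SD, n = 6).

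The log2 fold change of *Clec7a* was 1.35 (SE 0.205) in *muMt*-/- against WT and 0.97 (SE 0.204) in GABA-treated *muMt*-/- against WT. Both comparisons use the same WT libraries. As background over the 9469 genes tested, of which 9 are members, edgeR's quasi-likelihood test called 2.05% in *muMt*-/- against WT in either direction and 1.02% higher. Groups lay apart without overlap in the higher direction for 1.15% of genes in that comparison. The number called there, 194, was 11 with log2 depth as a covariate and between 67 and 231 when 1 library was left out. In GABA-treated *muMt*-/- against WT, 0.0739% of genes were called in either direction, 0.0422% higher and 0.211% lay apart, higher. The 7 genes called there became between 2 and 9 when 1 library was left out, 14 with DESeq2's adjusted p and 63 without a filter on low numbers. *Clec7a* lies among the called genes in both comparisons because it was chosen for these values, so its call is no finding. In GABA-treated mice against WT the call was kept in 3 of 7 other settings and in 4 of 12 omissions of 1 library. Its log2 fold change in GABA-treated mice against WT ran between 0.71 and 1.13 over the omissions.

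In the comparison of GABA-treated with untreated *muMt*-/- TAMs, the log2 fold change of *Clec7a* was −0.39 (SE 0.2). The GABA-treated libraries are those in which *Clec7a* was chosen for staying high, which favours a small fall here, so this value too is a description. Of the GABA-treated libraries, 4 of 6 lay below every *muMt*-/- library, while replicate 1, at 393, lay above 5 of the 6. With 1 library left out the log2 fold change ran from −0.64 to −0.20.

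**Figure D1:**
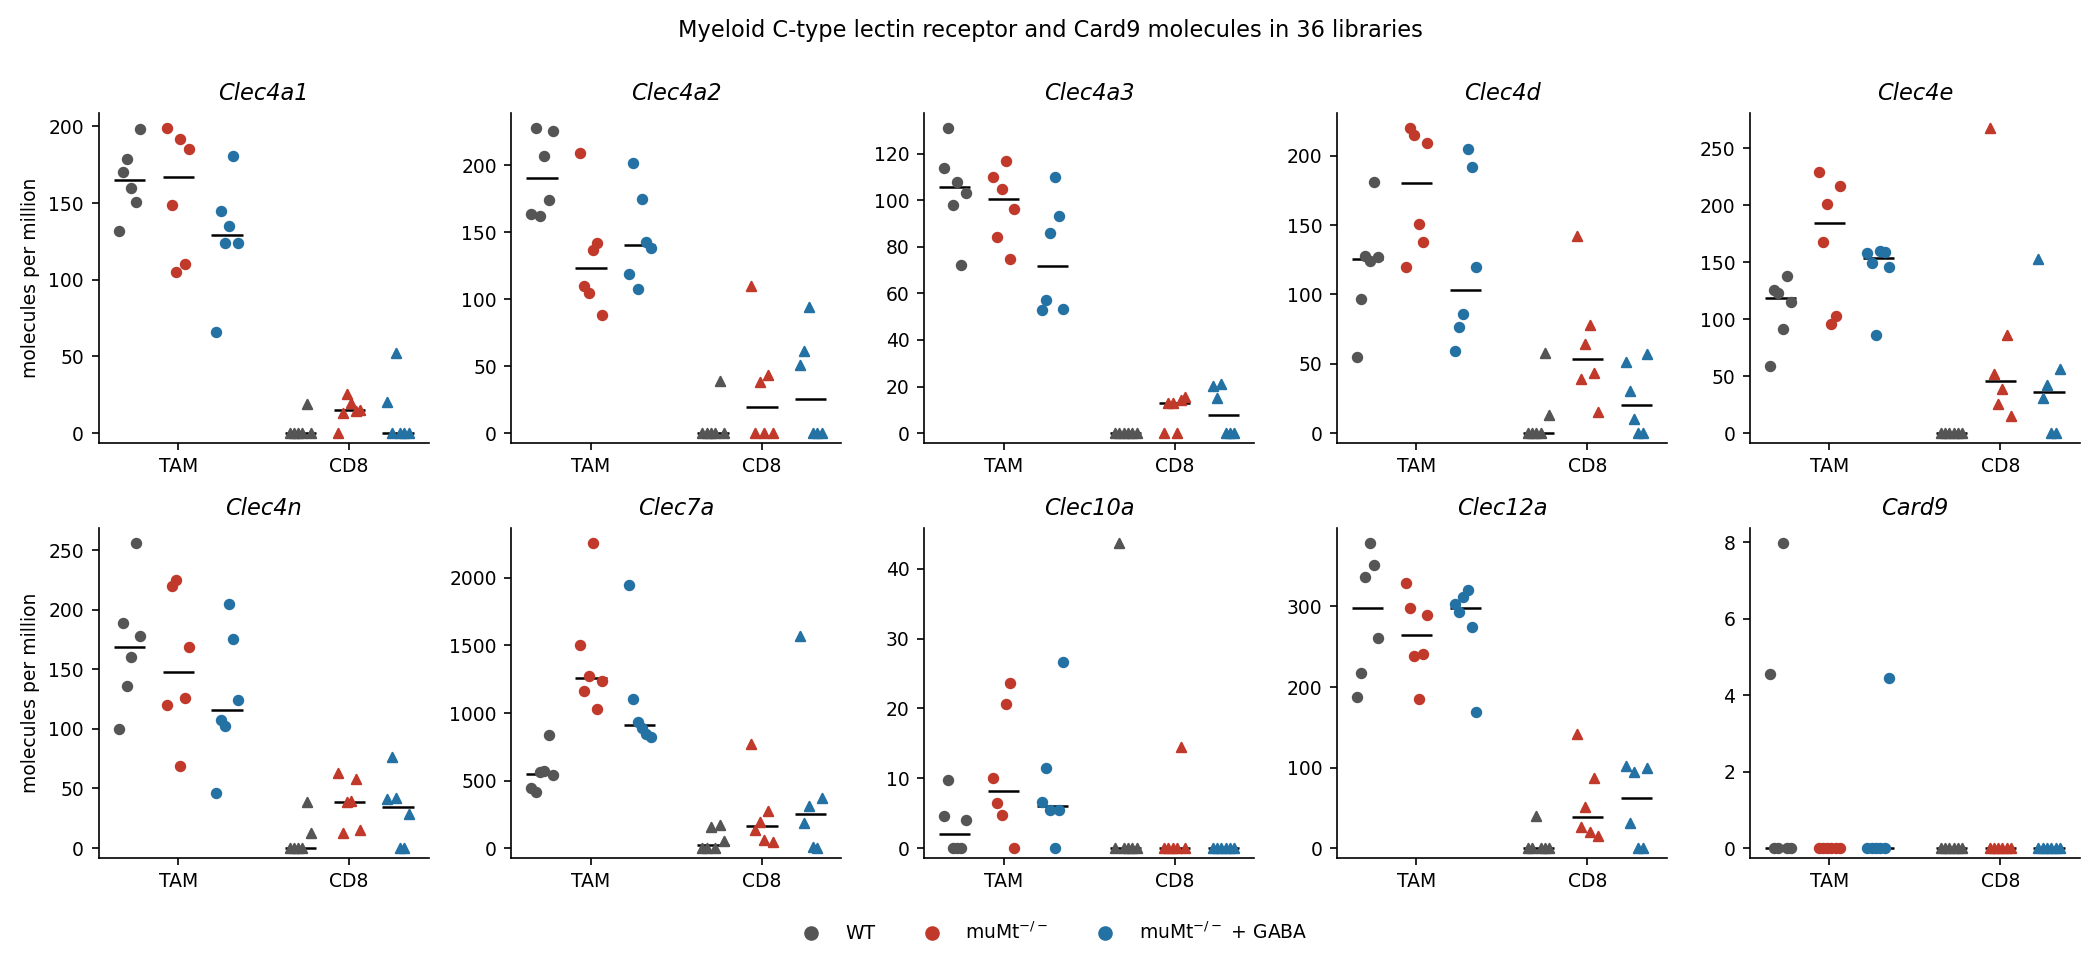
Level (CPM) of each of the 10 genes in TAM libraries (circles) and CD8+ libraries (triangles), 1 point per mouse, with a line at the median of 6. Each panel has its own axis; the *Clec7a* panel shows the 6 *muMt*-/- TAM libraries above all WT TAM libraries.

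The receptors that signal through FcRγ are *Clec4e*, *Clec4d* and *Clec4n*, and differences between the 3 genes were not tested. *Clec4e* normalized numbers were lowest 11.1, median 22 and highest 26.4 in WT TAMs, lowest 19.5, median 35.5 and highest 43.3 in *muMt*-/- TAMs and lowest 16.3, median 28.7 and highest 31.9 in GABA-treated TAMs. Of these, 4 of 6 *muMt*-/- and 5 of 6 GABA-treated libraries lay above every WT library. Its log2 fold changes against WT were 0.62 (SE 0.223) and 0.40 (SE 0.219).

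*Clec4d* had lowest 10.2, median 22.9 and highest 34.5 in WT, and lowest 22.6, median 35.5 and highest 42.3 in *muMt*-/- TAMs. In GABA-treated TAMs it had lowest 11.9, median 19.3 and highest 37.5, a range that overlaps that of WT nearly completely. The log2 fold changes against WT were 0.59 (SE 0.249) and 0.04 (SE 0.254). *Clec4n*, which lies beside *Clec4d* in the genome, had means of 31.8 ± 10.3, 30 ± 11.6 and 23.6 ± 10 (SD, n = 6).

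Among the receptors with inhibitory motifs, *Clec4a2* had lowest 30, median 35.5 and highest 43.4 in WT TAMs and lowest 17.1, median 24.5 and highest 39.6 in *muMt*-/- TAMs, where 5 of 6 libraries lay below every WT library. In GABA-treated TAMs it had lowest 20.3, median 26 and highest 38.2, with 4 of 6 below every WT library. The log2 fold changes were −0.53 (SE 0.196) and −0.36 (SE 0.186). *Clec12a* was close to level, with means of 53.8 ± 14.3, 51.1 ± 8.95 and 52.7 ± 11 (SD, n = 6).

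*Clec4a1* and *Clec4a3*, relatives of *Clec4a2*, had the same mean in WT and *muMt*-/- TAMs within their spread, at 30.7 and 30.6 for *Clec4a1* and 19.5 and 19.1 for *Clec4a3*. Both had lower means in GABA-treated TAMs, at 24.2 ± 6.52 and 14.2 ± 4.25, with groups that overlapped. *Clec10a*, which encodes the galactose-type lectin MGL1, was sparse, with 4, 12 and 12 molecules over the 6 libraries of each TAM group. It passed the filter for testing through the 2 *muMt*-/- groups, since its WT mean of 0.571 lay under the minimum of 1.

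*Card9* was the 1 member that did not pass the filter in TAMs. It gave 3 molecules over the WT libraries, 0 over the *muMt*-/- libraries and 1 over the GABA-treated libraries. The count of 0 among 987468 molecules allows up to 3.04 CPM, for counting error only. Whether *Card9* RNA differed between the groups was not detectable at this depth.

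Across the comparison of GABA-treated with untreated *muMt*-/- TAMs, edgeR with Benjamini-Hochberg adjustment called 0 of the 9 tested members at an adjusted p under 0.05, a count that for *Clec7a* is not free of the selection, beside 0.0211% of the 9469 genes. These 2 genes became 36 without GABA-treated replicate 1, 12 without *muMt*-/- replicate 5 and 60 with DESeq2's adjusted p. DESeq2 gave an adjusted p for 2 of the 9, *Clec7a* and *Clec12a*, and called neither. At an unadjusted p under 0.05 edgeR called 1 member, *Clec4d*, beside 8.46% of all genes, which for 9 genes is near the background. *Clec4d* had a log2 fold change of −0.55 (SE 0.255, edgeR adjusted p 0.57), and 4 of 6 GABA-treated libraries lay below every *muMt*-/- library. Negative fold changes were found for 7 of the 9 tested members, with a median of −0.29. Over all genes tested the median was 0.06, and 55.8% were positive.

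How the members varied among themselves was measured within groups, as deviations of log2(normalized number + 1) from each group's mean over the 18 TAM libraries. Of 36 pairs among the 9 tested members, 20 had a positive Pearson's r, and the median r was 0.0673. The closest pair was *Clec4d* and *Clec4n* (r = 0.81, permutation p 0.00013, adjusted over the 36 pairs 0.00468; Spearman's rho = 0.83, permutation p 0.00017, adjusted 0.00612). It was the 1 pair with both adjusted values under 0.05. With 2 libraries dropped, those most distant from the *Clec4d* median, r was 0.73. The r within each group of 6 was 0.83 in WT, 0.70 in *muMt*-/- and 0.91 in GABA-treated TAMs.

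Libraries high in *Clec4d* were thus high in *Clec4n* in every TAM group, although *Clec4d* had a higher mean in *muMt*-/- than in WT TAMs and *Clec4n* did not. Among 5309 other genes at a mean level of 5 or more, *Clec4n* ranked 11 by r with *Clec4d*, and *Clec4d* ranked 57 by r with *Clec4n*. The median r over those genes was 0.00741 for *Clec4d* and −0.00404 for *Clec4n*. *Clec4e*, their neighbour, had r = 0.41 with *Clec4d* (permutation p 0.0859, adjusted 0.515; rho = 0.31, permutation p 0.197, adjusted 0.591) and did not pass the threshold.

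**Figure D2:**
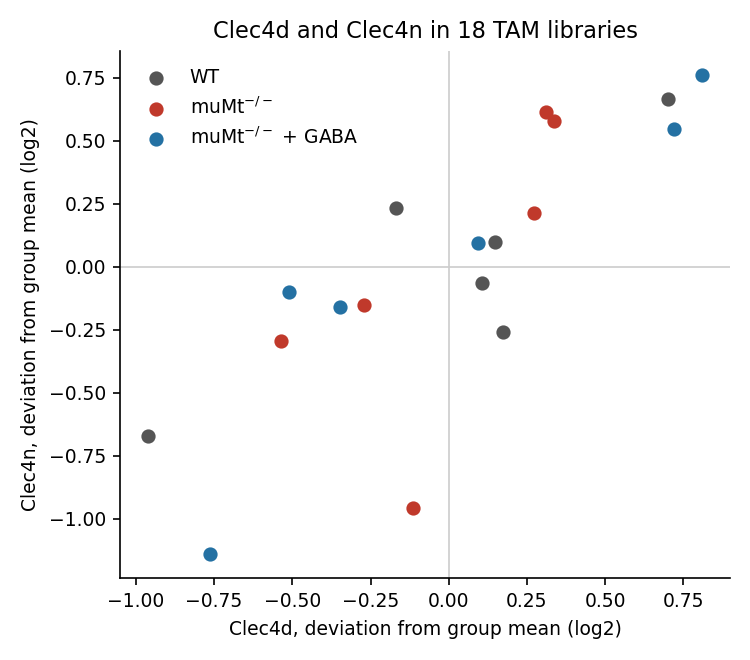
Deviation of *Clec4d* (x axis) and *Clec4n* (y axis) from their group means, as log2(normalized number + 1), in 18 TAM libraries, 1 point per mouse. Points of all 3 groups run from low in both genes to high in both (r = 0.81).

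The pair *Clec10a* and *Clec12a* had r = −0.69 (permutation p 0.00263, adjusted 0.0473) and rho = −0.66 (permutation p 0.00693, adjusted 0.0971). With 28 molecules of *Clec10a* in all TAM libraries, it is given as a value only. *Clec7a* had no pair with an adjusted p under 0.05 among its 8. Its closest by the size of r was *Clec4n* (r = −0.53, permutation p 0.0482, adjusted 0.434, and rho = −0.35, permutation p 0.179, adjusted 0.585). That r was 0.66 in WT, −0.78 in *muMt*-/- and −0.90 in GABA-treated TAMs. Dropping the 2 libraries most distant from the *Clec4n* median brought r to 0.09, so that the relation rested on those libraries. By rho the closest was *Clec12a* (rho = 0.51, permutation p 0.0388, adjusted 0.349).

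*Clec7a*, *Clec4d* and *Clec4n* were then set against the summed levels of 9 marker lists and the depth in the same libraries, 30 relations chosen after the values above were seen. Of these, the summed level of the neutrophil list passed the threshold with both genes of the pair, and single markers were not tested. Its r was 0.70 with *Clec4d* (permutation p 0.00183, adjusted 0.0274; rho = 0.72, permutation p 0.00078, adjusted 0.0234). With *Clec4n* it was 0.68 (permutation p 0.00135, adjusted 0.0274; rho = 0.71, permutation p 0.00212, adjusted 0.0318). Dropping the 2 libraries most distant from the median of the marker sum gave r of 0.59 and 0.53. After the within-group slope on the neutrophil markers was taken out of both genes, *Clec4d* and *Clec4n* had r = 0.64, and with depth taken out instead, r = 0.80.

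Of the neutrophil list, 8 of 10 genes were detected in TAMs, the defining markers *Retnlg* and *Camp* were at 0, and the most abundant gene was *Csf3r*, at 33.6 CPM. Summed levels were lowest 36.4, median 47.4 and highest 204 CPM in WT, lowest 89.8, median 138 and highest 162 in *muMt*-/- and lowest 39.5, median 96.1 and highest 121 in GABA-treated TAMs. No group comparison of this sum passed the threshold (exact permutation, adjusted p 0.25 for *muMt*-/- against WT, 0.913 for GABA-treated *muMt*-/- against WT and 0.152 for GABA-treated against untreated mice). In libraries of sorted bulk cells, fewer cells of a type and less RNA per cell cannot be told apart.

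Among the other lists, nuclear RNA differed between TAM groups. The 4 nuclear RNAs taken as a sign of RNA quality, led by *Malat1* at 4421 CPM, were lowest 3175, median 3662 and highest 3891 in WT, lowest 4688, median 5770 and highest 10474 in *muMt*-/- and lowest 3487, median 3884 and highest 5341 in GABA-treated TAMs. All 6 *muMt*-/- libraries lay above all WT libraries (exact two-sided permutation p 0.00216, adjusted over 27 comparisons 0.0292). The sum fell again with GABA (ratio of means 0.649, 5 of 6 libraries below every *muMt*-/- library, exact p 0.00649, adjusted 0.0438).

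Within groups, *Clec7a* had r = 0.69 with the nuclear RNAs (permutation p 0.0114, adjusted over 30 relations 0.114; rho = 0.42, permutation p 0.0896, adjusted 0.448). Dropping the 2 libraries most distant from the median of the nuclear sum brought r to 0.19, so that the relation rested on those libraries. The part of RNA quality in the level of *Clec7a* was not tested.

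Inflammatory monocyte markers, 8 of 8 detected and led by *Ccr2*, were lowest 1540, median 1724 and highest 2039 CPM in WT TAMs. They were lowest 1585, median 3318 and highest 3482 in *muMt*-/- TAMs and lowest 2005, median 2362 and highest 2631 in GABA-treated TAMs. The difference was past the threshold for GABA-treated *muMt*-/- against WT (ratio of means 1.34, 5 of 6 libraries above every WT library, exact p 0.00433, adjusted 0.039). It was not for *muMt*-/- against WT (ratio 1.67, 5 of 6 above, exact p 0.013, adjusted 0.0682). Of single markers, given as values only, *Ccr2* had medians of 839, 1407 and 864 CPM in WT, *muMt*-/- and GABA-treated TAMs, and *Plac8* had 368, 774 and 719. The 16 macrophage markers, led by *Apoe*, had a ratio of 0.831 in *muMt*-/- against WT (exact permutation, adjusted p 0.0682). In GABA-treated *muMt*-/- against WT their ratio was 0.828 (exact permutation, adjusted p 0.11).

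The epithelial list was 2.14 times the WT mean in *muMt*-/- TAMs, with 6 of 6 libraries above every WT library (exact p 0.00216, adjusted 0.0292). That sum was nearly all *Cdh1*, at 67.7 of 68.2 CPM, and *Epcam*, *Krt18*, *Krt19*, *Krt20*, *Cldn4* and *Cldn7* were at 0. The 10 dendritic cell markers, led by *Clec9a* and with *Cd209a* at 0, had summed means of 10.1, 36.9 and 35.1 CPM, and their adjusted exact p against WT were 0.0804 and 0.0751. The 12 T cell, 10 B cell and 10 stromal markers gave adjusted exact p between 0.25 and 0.976 in the 3 TAM comparisons. Of the B cell markers, *Cd79a*, *Pax5* and *Blk* were at 0. The part of other cells in the level of *Clec7a* was not tested.

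The 5 genes closest to *Clec7a* over the 18 TAM libraries, out of the same 5309 genes, were *Gdap10* (r = 0.94), *Bach1* (r = 0.89), *Suco* (r = 0.87), *Rsrc2* (r = 0.86) and *Stk17b* (r = 0.86). These r include the differences between groups and are a description. Within groups they were 0.82, 0.81, 0.70, 0.63 and 0.89 in the same order. Mean normalized numbers of *Gdap10* were 13.6 in WT, 32.9 in *muMt*-/- and 26.4 in GABA-treated TAMs, the same order of groups as *Clec7a*. Among the other members with a mean of at least 5, *Clec4e* ranked highest by this measure, at 550 of 5309 (r = 0.51).

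In CD8+ libraries, 6 members passed the filter (*Clec4a2*, *Clec4d*, *Clec4e*, *Clec4n*, *Clec7a* and *Clec12a*) and 4 did not. Of the 6, all but *Clec7a* had a WT mean under the minimum of 1 and passed through the *muMt*-/- groups, so that a count over the members that passed is no support for a difference. Levels are given in CPM beside those of TAMs, with no test between the cell types.

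*Clec7a* in CD8+ libraries had lowest 0, median 26 and highest 174 CPM in WT, lowest 46.2, median 161 and highest 771 in *muMt*-/- and lowest 0, median 249 and highest 1571 in GABA-treated *muMt*-/- mice. Group means were 11.4%, 17.4% and 37.4% of the TAM mean of the same group. Over the 6 groups of libraries the means ran from 1411 in *muMt*-/- TAMs through 1090 in GABA-treated TAMs, 560 in WT TAMs, 408 in GABA-treated CD8+ and 246 in *muMt*-/- CD8+ libraries to 64 in WT CD8+ libraries. Neighbours in that order overlapped.

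A single library carried much of the GABA-treated CD8+ value. Replicate 1 held 154 of the 223 *Clec7a* molecules of that group. With it, the log2 fold change of GABA-treated against untreated *muMt*-/- CD8+ libraries was 0.83 (SE 0.62, edgeR adjusted p 0.999), and without it −0.49 (SE 0.58, adjusted p 0.992), so that the direction changed.

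edgeR called 0 members and 0 genes in each of the 3 CD8+ comparisons, a background of 0% of 6663 genes. DESeq2's adjusted p called 0, 1 and 0 genes and no member. Without a filter on low numbers edgeR called 72, 64 and 11 of 13109 genes, among them 3 members (*Clec4e*, *Clec7a* and *Clec12a*) in each comparison against WT and 0 in the last, and without WT replicate 5 it called 13 in *muMt*-/- against WT. At an unadjusted p under 0.05, edgeR called 4 of the 6 tested members in *muMt*-/- against WT (*Clec4d*, *Clec4e*, *Clec7a* and *Clec12a*), beside 6.17% of all genes. It called 3 in GABA-treated *muMt*-/- against WT (*Clec4e*, *Clec7a* and *Clec12a*), beside 6.89%, and 0 in GABA-treated against untreated *muMt*-/- mice, beside 3.71%. The log2 fold changes of *Clec7a* against WT were 2.01 (SE 0.864, adjusted p 0.713) and 2.83 (SE 0.815, adjusted p 0.458). Replicate 1 held 49 of the 99 *Clec7a* molecules in *muMt*-/- libraries, and without replicate 1 of the group concerned these values were 1.25 (adjusted p 0.977) and 1.49 (adjusted p 0.973). All 6 tested members had positive fold changes in both comparisons against WT, which share their WT libraries, as did 62.3% and 65.5% of all genes tested.

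*Clec4e* gave 0 molecules in all 6 WT CD8+ libraries and 1 to 17 in every *muMt*-/- library, 32 in all. Against a floor of 3 molecules over the WT group, the pooled level was 6.95 times that floor in *muMt*-/- libraries. With 25 molecules it was 4.49 times the floor in GABA-treated libraries (edgeR adjusted p 0.319 and 0.458 for the comparisons against WT). The floor covers counting error of the WT count only, not that of the other group or the spread between mice. Replicate 1 held 17 of the 32 and 15 of the 25, and without it the levels were 3.86 and 2.25 times the floor. *Clec12a* gave 1 molecule in WT, 23 in *muMt*-/- and 28 in GABA-treated libraries. The ratio of pooled molecules was 15 with a 95% counting interval (exact binomial) of 2.43 to 617 for *muMt*-/-, and 15.1 with an interval of 2.49 to 616 for GABA-treated mice (edgeR adjusted p 0.375 and 0.458). These intervals cover counting error only and not the spread between mice.

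*Clec4d* gave 4 molecules over the WT CD8+ libraries, 25 in *muMt*-/- and 12 in GABA-treated libraries, with log2 fold changes of 2.02 (SE 0.782) and 0.78 (SE 0.882) against WT and edgeR adjusted p of 0.643 and 0.914. *Clec4a2* and *Clec4n* gave 2 and 3 molecules in WT and at most 18 in any other CD8+ group. *Clec4a1*, *Clec4a3* and *Clec10a* gave between 0 and 7 molecules per group. *Card9* gave 0 in all 18 CD8+ libraries, which allows up to 11.4, 7.43 and 6.15 CPM in WT, *muMt*-/- and GABA-treated mice.

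Macrophage marker RNA was measured in the same CD8+ libraries, and no comparison passed the adjusted threshold. The 16 markers, all detected and led by *Cd14*, summed to 0 to 1044 CPM in WT (median 200), 507 to 4849 in *muMt*-/- (median 842) and 145 to 2857 in GABA-treated mice (median 1291). The exact permutation p was 0.0238 for *muMt*-/- against WT and 0.039 for GABA-treated mice against WT, and the values adjusted over 27 comparisons were 0.321 and 0.336. As a percent of the TAM mean of the same group, the markers had medians of 1.39, 7.04 and 10.8.

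The relation between the markers and *Clec7a* over libraries was not tested, and some libraries are given with both values. *muMt*-/- replicate 1 stood at 40.5% of the TAM level for the markers and 54.7% for *Clec7a*, and GABA-treated replicate 1 at 24% and 144%. The 144% is of the TAM group mean of 1090 CPM, and TAM replicate 1 of that group was itself at 1949 CPM. Whether same-numbered TAM and CD8+ libraries come from the same mouse is not given. GABA-treated replicate 3 stood at 22.5% and 28.9%, and replicate 6 at 9.99% and 33.8%. GABA-treated replicates 4 and 5 stood at 1.96% and 1.22% for the markers and at 1.02% and 0% for *Clec7a*. WT replicate 3 stood at 1.92% for the markers and 28.2% for *Clec7a*, WT replicate 5 at 7.25% and 31.1%, and *muMt*-/- replicate 6 at 6.56% and 3.27%. Pooled by group, there were 18.9, 16.1 and 30.1 *Clec7a* molecules per 100 macrophage marker molecules in CD8+ libraries of WT, *muMt*-/- and GABA-treated mice. Without GABA-treated replicate 1, which held 154 of 223 *Clec7a* molecules, the last value was 15, and the median over the 6 libraries was 12.5. The same quantity was 3.99, 11.6 and 8.69 in TAMs. The WT CD8+ value came from 17 *Clec7a* over 90 marker molecules, of which replicate 5 held 9 and 54. Only 2 of the 6 WT CD8+ libraries had 10 or more marker molecules. The part of macrophage RNA in the CD8+ values was not tested.

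**Figure D3:**
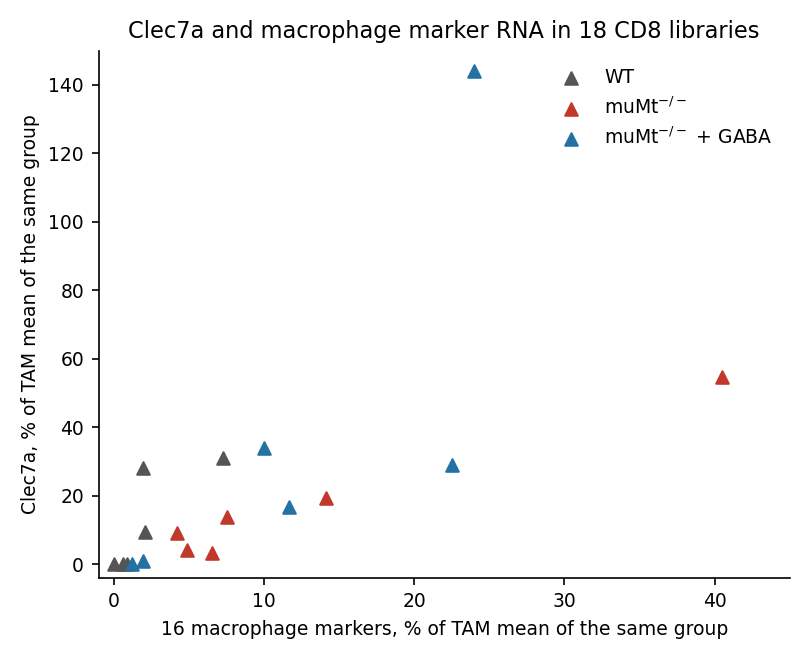
*Clec7a* (y axis) against the summed 16 macrophage markers (x axis) in 18 CD8+ libraries, both as a percent of the mean TAM level (CPM) of the same group, 1 point per mouse. The highest point is GABA-treated replicate 1, at 24% for the markers and 144% for *Clec7a*.

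The other marker lists gave no adjusted p under 0.05 in CD8+ libraries, the smallest being 0.321, for the macrophage list and the nuclear RNAs. The most abundant genes were *S100a8* for neutrophils, *Ly6c2* for monocytes, *Ccr7* for dendritic cells, *Thy1* for T cells, *Cd79b* for B cells, *Cdh1* for epithelium, *Col3a1* for stroma and *Malat1* for nuclear RNAs. Of these, *Ly6c2* had a median of 928 CPM in WT CD8+ libraries and 269 in WT TAMs, and *Ccr7* had 249 and 0. Which cells their RNA came from was not tested. *Retnlg*, *Ly6g*, *Camp*, *Clec9a*, *Ms4a1*, *Cd79a*, *Pax5*, *Blk*, *Cd209a*, *Krt8*, *Krt18*, *Krt19*, *Krt20*, *Cldn4* and *Cldn7* were at 0.

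The genes through which these receptors act were taken from 5 lists and tested in all comparisons. Of the 16 adaptors, kinases and exchange factors next to the receptors, 16 were tested in TAMs, and 0 passed an adjusted p of 0.05 in any of the 3 comparisons by edgeR. At an unadjusted p under 0.05, 3 were higher and 4 lower in *muMt*-/- against WT, 0 and 2 in GABA-treated *muMt*-/- against WT, and 0 and 3 in GABA-treated against untreated mice. Over all 9469 genes, 14.9%, 7.02% and 8.46% had such a p. The smallest unadjusted p was that of *Syk*, the kinase that the activating receptors share. *Syk* had lowest 12.8, median 16 and highest 22.9 in WT, lowest 18.8, median 27 and highest 37.7 in *muMt*-/- and lowest 9.29, median 16.9 and highest 19.1 in GABA-treated TAMs. Its log2 fold change was 0.64 (SE 0.208, edgeR adjusted p 0.0938) in *muMt*-/- against WT and −0.76 (SE 0.217, adjusted p 0.209) with GABA. Neither passed the threshold.

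The list of genes induced through the pathway held 2 genes that passed. This list was chosen with earlier results of these data known, and induction of its genes through these receptors was not tested. Of 15 tested of 20, 2 were higher and 0 lower in *muMt*-/- against WT TAMs by edgeR's adjusted p, beside 1.02% of all genes called higher, and 0 were called in either direction in the other TAM comparisons. At an unadjusted p under 0.05, 3 were higher and 0 lower in *muMt*-/- against WT, 0 and 0 in GABA-treated *muMt*-/- against WT, and 0 and 5 in GABA-treated against untreated mice, beside 14.9%, 7.02% and 8.46% of all genes. The median log2 fold change of the list was 0.23 in *muMt*-/- against WT, −0.06 in GABA-treated *muMt*-/- against WT and −0.31 in GABA-treated against untreated mice. Over all genes it was −0.05, 0.02 and 0.06.

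*Cxcl2*, which encodes a neutrophil chemoattractant, had lowest 58, median 88 and highest 129 in WT TAMs, lowest 119, median 186 and highest 216 in *muMt*-/- TAMs and lowest 56.5, median 98.3 and highest 130 in GABA-treated TAMs. The log2 fold change was 0.87 (SE 0.198, edgeR adjusted p 0.0123) in *muMt*-/- against WT, 0.03 (SE 0.2, adjusted p 0.991) in GABA-treated mice against WT and −0.84 (SE 0.2, adjusted p 0.117) with GABA. *Ptgs2*, which encodes cyclooxygenase-2, had lowest 29.8, median 52.6 and highest 78.5 in WT, lowest 71.3, median 88.5 and highest 149 in *muMt*-/- and lowest 39.4, median 53.6 and highest 121 in GABA-treated TAMs. Its log2 fold change was 0.90 (SE 0.221, adjusted p 0.0218), then 0.35 (SE 0.222, adjusted p 0.793) and −0.55 (SE 0.221, adjusted p 0.449). Both calls against WT were lost under some alternatives, chosen for these genes after their values were seen. With log2 depth as a covariate the log2 fold change was 0.64 for *Cxcl2* (edgeR adjusted p 0.394) and 0.79 for *Ptgs2* (adjusted p 0.327). The *Cxcl2* call was lost without WT replicate 1 or *muMt*-/- replicate 4, and the *Ptgs2* call without either of these or WT replicate 3. In GABA-treated TAMs *Cxcl2* had a mean of 95.9 beside 92.8 in WT, while *Clec7a* had 208 beside 105; this difference in pattern was not tested.

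The other 3 lists gave 0 calls in TAMs by edgeR's adjusted p. For the CARD9 complex and the NF-κB end of the pathway, with 15 of 16 genes tested, the smallest unadjusted p was 0.014, for *Rel* in *muMt*-/- against WT (log2 fold change 1.03, SE 0.399, adjusted p 0.188). For the 8 phosphatases and tetraspanins that restrain the receptors it was 0.00158, for *Cd82* (1.04, SE 0.305, adjusted p 0.0631). For other C-type lectins and related receptors, with 11 of 25 tested, it was 0.00184, for the mannose receptor gene *Mrc1* (1.27, SE 0.379, adjusted p 0.0682), and 1 *muMt*-/- library reached 191 against a group median of 40.2.

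In CD8+ libraries none of the 5 lists had a call by edgeR's adjusted p, with 3, 12, 13, 8 and 14 genes tested. The proximal signalling list had a median log2 fold change of 1.42 in *muMt*-/- against WT and 1.27 in GABA-treated *muMt*-/- against WT, beside 0.16 and 0.21 over all genes. At an unadjusted p under 0.05, 3 and 5 of its 12 tested genes were higher, beside 6.17% and 6.89% of all genes in either direction. The smallest was that of *Fcer1g*, which macrophages express (log2 fold change 1.66, SE 0.548, adjusted p 0.458 in GABA-treated mice against WT). In the same 2 comparisons the list of genes induced through the pathway had medians of 0.71 and 0.30. Of its 14 tested genes, 5 and 4 were higher and 0 and 1 lower at an unadjusted p under 0.05 by edgeR. Medians were −0.04 and −0.12 for the CARD9 complex list, 0.25 and 0.24 for the phosphatases and tetraspanins and 0.04 and −0.02 for the other lectins. Over all 3 CD8+ comparisons, the smallest unadjusted edgeR p of the other lists were in different comparisons. *Clec5a* (0.0108) and *Cd82* (0.108) were higher in GABA-treated *muMt*-/- against WT, and *Usp15* (0.0327) was higher in *muMt*-/- against WT. For the list of induced genes it was *Nlrp3* (0.00403), lower in GABA-treated against untreated *muMt*-/- mice (log2 fold change −2.66, adjusted p 0.999).

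In the genome (GRCm38, the mm10 build that the authors mapped to), 8 of the 10 members lie on chromosome 6. *Clec4a1*, *Clec4a3*, *Clec4a2*, *Clec4n*, *Clec4d* and *Clec4e* lie in this order within 368024 bases, from *Clec4a1* at chr6:122921848-122934619 to *Clec4e* at chr6:123281789-123289871, with *Clec4n* at chr6:123229843-123247024 and *Clec4d* at chr6:123262107-123275268. *Clec12a* (chr6:129349783-129365303) and *Clec7a* (chr6:129461591-129472785, minus strand) lie farther along. *Clec10a* is on chromosome 11 and *Card9* on chromosome 2.

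The genes between these members gave few molecules. *Clec4a4*, *Clec4b1* and *Clec4b2* gave 25, 85 and 0 molecules over the 18 TAM libraries, and *Clec12b*, *Clec1b*, *Clec9a* and *Clec1a*, between *Clec12a* and *Clec7a*, gave 0, 5, 31 and 3. The longest exact run that any 2 member transcripts share is 39 bases, for *Clec4a2* and *Clec4a3*, and *Clec4d* and *Clec4n* share at most 11.

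The RefSeq promoter table (GRCm38.p6) held 8 of the 10 members, without *Clec4n* and *Clec10a*. The 250 bases before the transcription start are shown for *Clec7a*, which was selected on measured values, and for *Clec4d* and *Clec4e*, neighbours with higher means in *muMt*-/- TAMs. They were searched on both strands for GAGGAA (the core bound by PU.1), TTGCNNAA (C/EBP) and an NF-κB pattern, and capitals mark every match. The windows are chr6:129472780-129473029 for *Clec7a* and chr6:123289872-123290121 for *Clec4e*, both on the minus strand, and chr6:123261857-123262106 for *Clec4d* on the plus strand.
Clec7a: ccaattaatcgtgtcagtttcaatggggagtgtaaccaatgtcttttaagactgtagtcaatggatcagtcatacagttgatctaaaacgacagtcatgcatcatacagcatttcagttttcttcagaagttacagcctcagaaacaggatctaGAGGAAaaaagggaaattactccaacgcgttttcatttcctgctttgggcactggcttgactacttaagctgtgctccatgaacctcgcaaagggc
Clec4d: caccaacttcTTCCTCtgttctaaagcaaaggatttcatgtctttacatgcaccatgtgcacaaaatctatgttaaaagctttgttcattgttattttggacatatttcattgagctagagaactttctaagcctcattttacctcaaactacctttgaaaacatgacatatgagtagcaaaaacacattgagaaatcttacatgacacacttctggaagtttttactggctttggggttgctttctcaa
Clec4e: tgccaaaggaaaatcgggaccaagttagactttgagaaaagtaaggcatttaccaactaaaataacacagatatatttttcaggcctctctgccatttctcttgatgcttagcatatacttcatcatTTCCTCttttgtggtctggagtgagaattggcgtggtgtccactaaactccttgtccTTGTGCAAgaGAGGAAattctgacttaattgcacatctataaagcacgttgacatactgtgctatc

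GAGGAA was found in 5 of the 8 member promoters (*Clec4a1*, *Clec4d*, *Clec4e*, *Clec7a* and *Clec12a*) and in 23.1% of 27025 promoters of the same length. In *Clec7a* the match begins 96 bases before the start. TTGCNNAA was found in *Clec4e* and *Clec12a* and in 9.55% of all promoters. In *Clec4e* it begins 66 bases before the start, beside a GAGGAA match at 56. The NF-κB pattern was found in *Clec4a1* and in 45.4% of all promoters. A match describes the letters in the window and shows no binding.

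Several limits apply to these values. Each group had 6 libraries of 100 cells, and *Clec7a* had 1 library far above the rest in every TAM group. The comparisons of *Clec7a* with WT were used to choose this gene, so their size is likely to be overstated. Independent libraries would be needed for a test. In TAMs the nuclear RNAs and the epithelial list also differed between *muMt*-/- and WT, and calls in that comparison fell with a depth covariate. Most members gave a few molecules per CD8+ library. RNA levels do not measure receptor protein on the cell surface or its signalling.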

How the data were processed

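Digital RNA sequencing of 36 libraries of 100 sorted cells, 1 per mouse and cell type, was analysed. The authors mapped reads to mm10 with STAR and the refFlat annotation and deposited counts of distinct molecules for every gene, and these counts were used as deposited. 0 columns were left without a sample, and 0 libraries were identical. Groups follow the labels, and replicates are separate mice. Counts were divided by DESeq2 size factors (18 libraries per cell type) or set per 1000000 molecules. Genes were tested where the normalized number averaged above 1, with edgeR 4.0.16 (quasi-likelihood F-test, TMM, 18 libraries, Benjamini-Hochberg adjustment over all genes tested, threshold 0.05) in R 4.3.3, after a test on simulated data. DESeq2 1.42.0 was an alternative, with other filters, scalings, covariates and omissions of single libraries. Other steps ran in Python 3.11.15 (scipy 1.17.1, pandas 2.3.3, numpy 2.4.6; figures, matplotlib 3.10.9). Marker sums and depth were compared by exact two-sided permutation (smallest p 0.0022), and correlations by 100000 permutations within groups, with a pseudocount of 1. Named were all 10 members, pathway genes with an adjusted p under 0.05 in the cell type or, where a list had none, its gene with the smallest unadjusted p, and for markers the most abundant gene and defining markers at 0. The members and lists were chosen with earlier results of these data known. Protein sequences and the disrupted immunoglobulin gene were not analysed here.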

Additional observations from a re-analysis of the deposited data

Results flagged for a closer look

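Values of the members that passed the filter were examined in 44 groups of 6 libraries for a highest or lowest library far from the rest, and 14 stood out. Chance gives about 1 in 20 such groups where values are continuous. Where most libraries of a group hold 0 molecules, as in the WT CD8+ groups, a library with 1 to 3 molecules stands out by construction, so the 14 cannot be set against that rate.

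*Clec7a* had a single high library in each TAM group, at a normalized number of 159 in WT (replicate 5, next 104), 459 in *muMt*-/- (replicate 4, next 285) and 393 in GABA-treated *muMt*-/- mice (replicate 1, next 208). *Clec4e* had a low library in GABA-treated TAMs, replicate 3 at 16.3 (next 27.4), and *Clec12a* another, replicate 6 at 31.6 (next 50.3).

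In CD8+ libraries, *muMt*-/- replicate 1 was far above the others for *Clec4a2* (7.08, next 2.45), *Clec4e* (17.2, next 4.91) and *Clec7a* (49.6, next 15.5). GABA-treated replicate 1 was far above the others for *Clec4e* (9.53, next 3.15) and *Clec7a* (97.9, next 20.5). WT replicate 5 was highest for *Clec4a2* (2.29, next 0), *Clec4d* (3.43, next 0.751) and *Clec4n* (2.29, next 0.751), and WT replicate 3 for *Clec12a* (2.21, next 0), each from 1 to 3 molecules. *muMt*-/- replicate 1, GABA-treated replicate 1 and WT replicate 5 also held the most macrophage marker RNA of their groups, at 40.5%, 24% and 7.25% of the TAM level. The part of that RNA in these values was not tested.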

How the results depend on the processing

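Counts of members called were recomputed with other scalings, filters, tools, covariates and samples. The TAM comparisons against WT chose *Clec7a*, so its calls there are no finding and are given only to show how far they depend on processing. In *muMt*-/- against WT the count of 1 became 5 with DESeq2's unadjusted p, beside 1111 of 9469 genes. In GABA-treated *muMt*-/- against WT, 1 became 0 with filterByExpr, with log2 depth as a covariate, with 12 libraries and with the replicate number as a block, and ranged from 0 to 1 when libraries were left out one at a time (called without WT replicate 5 or GABA-treated replicate 4, 5 or 6). The cause was not tested. In GABA-treated against untreated TAMs, DESeq2's unadjusted p called 1 member in place of 0, beside 580 genes. In CD8+ libraries, DESeq2's unadjusted p called 3 members in each comparison against WT in place of 0, beside 222 of 6663 genes in each, and so did edgeR without a filter on low numbers (*Clec4e*, *Clec7a* and *Clec12a*), beside 72 and 64 of 13109 genes.

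The fold change of a member had another sign than reported in 6 of 297 values recomputed with other settings and in 28 of 540 with 1 library left out. Of the 6, *Clec4n* in TAMs, *muMt*-/- against WT, turned to 0.223 with the depth covariate, and the others were in GABA-treated against untreated CD8+ libraries. *Clec4a2* turned to −0.195 with the depth covariate. *Clec12a* turned to −0.0212 with DESeq2 size factors in edgeR, −0.0648 with DESeq2, −0.0246 with the replicate block and −0.105 with the depth covariate. With 1 library left out, signs turned for *Clec4a3* and *Clec4n* (*muMt*-/- against WT), *Clec4d* and *Clec12a* (GABA-treated against WT) and *Clec10a* and *Clec12a* (GABA-treated against untreated) in TAMs, and for *Clec4a2*, *Clec4e*, *Clec4n*, *Clec7a* and *Clec12a* in GABA-treated against untreated CD8+ libraries. None of the tested values among these passed a threshold. In CD8+ libraries DESeq2 size factors moved the median log2 fold change of all genes from 0.16 to 0.06 (*muMt*-/-) and from 0.21 to 0.06 (GABA-treated) against WT, and the 6 tested members stayed positive.

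For *Cxcl2* and *Ptgs2* in *muMt*-/- against WT TAMs, alternatives chosen after seeing the data kept the direction. The calls were lost with the depth covariate (log2 fold change 0.635 and 0.785, adjusted p 0.394 and 0.327). With 1 library left out, log2 fold changes ran from 0.76 to 0.99 for *Cxcl2* and from 0.748 to 1.07 for *Ptgs2*, with adjusted p up to 0.0523 and 0.0984. The cause was not tested.

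The r of *Clec4d* and *Clec4n* was 0.81 with a pseudocount of 0.5, 0.82 with CPM and, chosen after seeing the data, 0.80 with depth taken out. Within a cell type, same-numbered libraries of different groups share only a number. Their deviations had mean r between −0.04 and 0.07 over the 6 pairs of groups, and the replicate block changed no other count of members called. The labels do not say whether TAM and CD8+ libraries of the same group and number come from the same mouse, and these were not paired. Depth limits *Card9* and *Clec10a* in both cell types, and all members in CD8+ libraries.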
